A study of Homo sapiens with 6 samples.

Results

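The drug efflux pumps examined here are 10 genes of the ATP-binding cassette (ABC) transporter family, ABCB1, ABCB4, ABCG2, ABCC1, ABCC2, ABCC3, ABCC4, ABCC5, ABCC6 and ABCC10. They were taken by exact gene name from the 26184 genes and loci in the count table, and all 10 were among the 17531 that passed a filter on low counts. The RNA-seq libraries came from 3 samples of Huh7 P, the untreated parental line of human hepatocellular carcinoma cells, and 3 samples of Huh7 LR, the lenvatinib resistant line derived from it. Lenvatinib is a kinase inhibitor used to treat liver cancer, with VEGF and FGF receptors among its targets. Huh7 LR cells were grown from Huh7 P cells in lenvatinib raised from 1 μM to 20 μM over about 10 months and were then kept at 20 μM, and no treatment is given for Huh7 P. Both lines are labelled wild type, and whether the drug was in the medium when RNA was taken was not stated. There is 1 resistant line, so the comparison is between this line and its parent, and the p-values measure the spread between samples of these lines.

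ABC transporters use the energy of ATP hydrolysis to move substrates across membranes, and the pumps of the B, C and G subfamilies are known for carrying drugs out of cells. In hepatocytes ABCB1, ABCB4, ABCG2 and ABCC2 sit in the canalicular membrane and move drugs and bile constituents into bile. Others, such as ABCC3 and ABCC4, sit in the sinusoidal membrane and move them into blood. ABCB1 encodes MDR1, also called P-glycoprotein, and ABCG2 encodes BCRP, which works as a dimer of short subunits. The ABCC genes encode the multidrug resistance-associated proteins (MRPs), several of which carry glutathione, glucuronide or sulfate conjugates.

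The libraries held 62738937 to 71427573 counts in Huh7 P and 63233655 to 70768720 counts in Huh7 LR, and no pair of samples of a line agreed within sampling noise. The hepatocyte markers were present in both lines, with 12 of 12 tested and a summed level of 45463 to 54755 CPM (counts scaled to library size by the TMM method) in Huh7 P and 58271 to 60867 CPM in Huh7 LR. Of these markers 6 were higher in Huh7 LR and none was lower, by edgeR with an adjusted p below 0.05, beside 23.3% higher and 22.4% lower of all genes and loci tested. Among markers of other cell types, 3 of 8 fibroblast, 3 of 6 endothelial and 3 of 7 leukocyte genes were expressed enough to be tested, with summed levels of 7.73 to 9.10, 39.2 to 47.9 and 62.2 to 67.7 CPM in Huh7 P and of 7.45 to 11.2, 65.7 to 71.7 and 9.89 to 14.1 CPM in Huh7 LR. Of these lists DCN, THY1, CDH5, KDR, TEK, HLA-DRA and TYROBP had no counts in any library. Others were expressed and differed between the lines in edgeR, the endothelial marker PECAM1 going from 44.0 to 68.7 CPM, the fibroblast markers COL1A1 from 1.28 to 4.59 CPM and PDGFRA from 6.25 to 2.92 CPM, and the leukocyte marker LYZ from 63.7 to 9.19 CPM. Their part in the pump values was not tested. In bulk RNA, fewer cells that express a gene and less RNA per cell cannot be told apart.

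Some pump transcripts are alike enough that reads may not be assigned to 1 gene. ABCB1 and ABCB4 lie next to each other on chromosome 7 and their coding sequences share a run of 122 bases, while the next longest run shared by any 2 pumps is 28 bases. The stretches that hold this run, from the coding sequences of GENCODE release 29 on GRCh38, are shown 5′ to 3′ with the 13 positions that differ over 242 bases in capitals. They cover positions 3565 to 3806 of the ABCB1 coding sequence and 3583 to 3824 of that of ABCB4.
ABCB1: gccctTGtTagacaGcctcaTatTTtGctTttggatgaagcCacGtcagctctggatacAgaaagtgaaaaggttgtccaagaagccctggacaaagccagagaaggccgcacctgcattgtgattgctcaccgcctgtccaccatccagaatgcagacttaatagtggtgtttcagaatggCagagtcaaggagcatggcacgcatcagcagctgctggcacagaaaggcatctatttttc
ABCB4: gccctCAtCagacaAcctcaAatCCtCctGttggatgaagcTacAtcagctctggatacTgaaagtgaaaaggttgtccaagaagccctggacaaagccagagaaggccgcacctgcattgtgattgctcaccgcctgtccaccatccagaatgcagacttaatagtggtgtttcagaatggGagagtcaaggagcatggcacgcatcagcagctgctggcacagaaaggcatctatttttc
Of the 50-base windows of the ABCB1 and ABCB4 transcripts, 119 were identical in both, which is 2.52% and 2.997% of their windows. ABCC6 shared more with other genes, since 852 of its 5698 windows, or 14.95%, also occurred in the pseudogenes ABCC6P1 or ABCC6P2. The first 176 coding bases of ABCC6 and the matching stretch of the ABCC6P2 transcript differ at 1 base, shown in capitals.
ABCC6: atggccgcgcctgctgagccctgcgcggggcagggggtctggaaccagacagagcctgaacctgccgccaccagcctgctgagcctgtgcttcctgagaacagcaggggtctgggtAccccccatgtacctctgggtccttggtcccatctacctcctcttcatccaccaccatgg
ABCC6P2: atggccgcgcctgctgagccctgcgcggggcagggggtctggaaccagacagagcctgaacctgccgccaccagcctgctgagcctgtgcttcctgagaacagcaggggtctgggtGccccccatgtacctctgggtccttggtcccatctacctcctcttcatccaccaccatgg
Neither pseudogene has a row in the table used here. The counts of ABCC6 may therefore hold reads of these copies or lack reads that were shared, which was not tested. The other 7 pumps shared no such window with any other annotated gene.

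Of the 10 pumps, 5 were higher in Huh7 LR and 2 were lower, with an adjusted p below 0.05 by the quasi-likelihood test of edgeR, against 23.3% and 22.4% of all genes and loci tested. ABCB1, ABCC3, ABCB4, ABCG2 and ABCC6 rose, ABCC1 and ABCC2 fell, and ABCC4, ABCC5 and ABCC10 did not pass. With the stricter limits of more than 2-fold and an adjusted p under 0.001, 1 pump rose and 1 fell, ABCB1 and ABCC1, where the background was 4.43% higher and 1.78% lower. The 3 Huh7 P values did not overlap the 3 Huh7 LR values for 8 of the 10 pumps, and the same held for 55.9% of all genes and loci tested. The median log2 fold change of the 10 pumps was 0.25, beside 0.005 over everything tested.

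**Figure D1:**
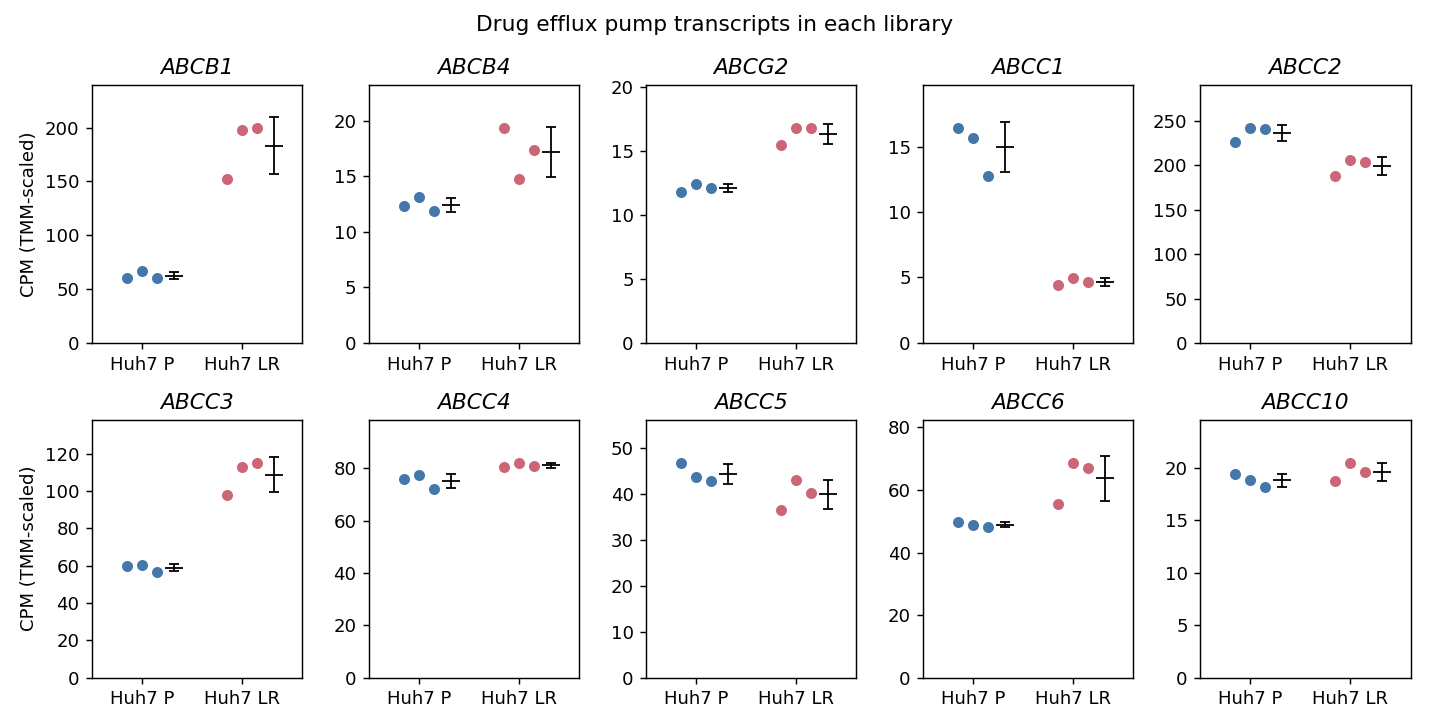
CPM scaled by TMM in each of the 3 Huh7 P and 3 Huh7 LR libraries for the 10 pumps, with the mean and SD of each line in black and an axis from 0 for each gene. ABCB1 in Huh7 LR spans 153 to 200 CPM against 60.5 to 66.7 CPM in Huh7 P, ABCC1 falls from 12.8 or more to 4.98 or less, and the ABCC5 and ABCC10 values of the lines overlap.

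ABCB1 (ENSG00000085563, chromosome 7, 87503633 to 87713323, minus strand) had the largest rise. It was at 60.5, 66.7 and 60.5 CPM in Huh7 P and at 153, 198 and 200 CPM in Huh7 LR. All Huh7 LR libraries were above all Huh7 P libraries, and Huh7 LR replicate 1 was the lowest of its line. The log2 fold change was 1.55 with an SE of 0.10 and a 95% interval of 1.32 to 1.78, or 2.93-fold (adjusted p = 1.36e-06, edgeR), and it kept to between 1.48 and 1.67 over all 15 other settings. Its neighbour ABCB4 (ENSG00000005471, chromosome 7, 87401697 to 87480435, minus strand) encodes MDR3, a phospholipid translocator of the canalicular membrane that is closely related to MDR1 in sequence. ABCB4 was at 12.3, 13.1 and 11.9 CPM in Huh7 P and at 19.4, 14.8 and 17.4 CPM in Huh7 LR. The lines did not overlap, but Huh7 LR replicate 1, the lowest in ABCB1, was the highest in ABCB4. The log2 fold change of ABCB4 was 0.47 with an SE of 0.11 (adjusted p = 0.00553, edgeR).

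The counts of ABCB1 per count of ABCB4 moved from 5.02 in Huh7 P to 10.6 in Huh7 LR, as geometric means. The log2 of this ratio was 2.30, 2.35 and 2.34 in the Huh7 P libraries, and those of Huh7 LR gave 2.98, 3.74 and 3.52, with no overlap and an exact permutation p of 0.1, two-sided, the smallest that 3 samples against 3 can give. ABCB1 therefore gained counts relative to ABCB4 in every Huh7 LR library, least in replicate 1.

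ABCG2 (ENSG00000118777, chromosome 4, 88090264 to 88231322, minus strand) was at 11.8, 12.4 and 12.1 CPM in Huh7 P and at 15.5, 16.8 and 16.8 CPM in Huh7 LR. The lines did not overlap, and the spread within each line was small, with an SD of 0.32 and 0.775 CPM (n = 3). The log2 fold change was 0.44 with an SE of 0.09 and an interval of 0.24 to 0.63, or 1.35-fold (adjusted p = 0.00232, edgeR), and it lay between 0.38 and 0.49 over all 15 other settings. Its rise was smaller than that of ABCB1. There were 0.193 ABCG2 counts per ABCB1 count in Huh7 P and 0.0898 in Huh7 LR, with no overlap between the lines (exact permutation p = 0.1, two-sided).

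**Figure D2:**
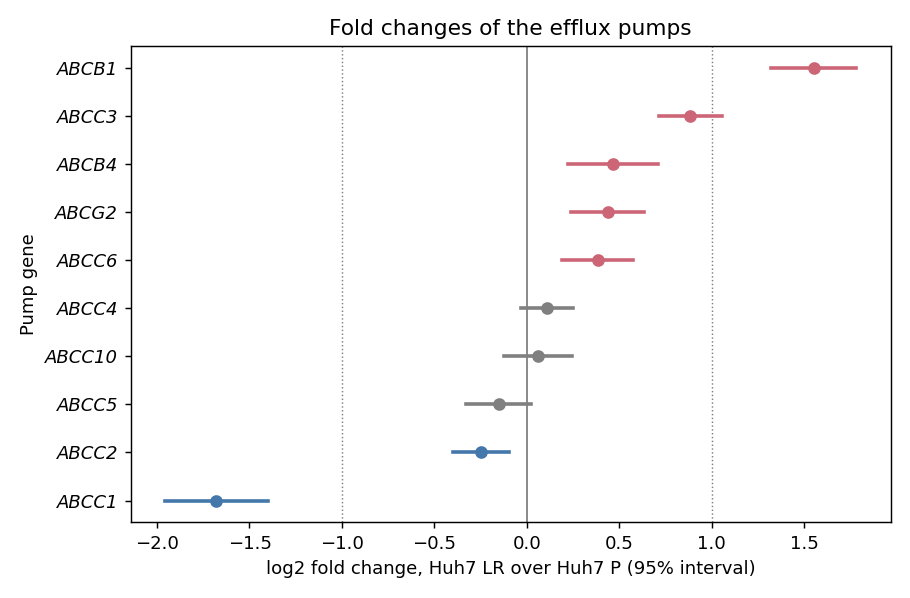
Log2 fold change of each pump from Huh7 P to Huh7 LR with its 95% interval from edgeR, ordered by size, with dotted lines at 2-fold, pumps with an adjusted p under 0.05 in red (higher) or blue (lower) and the others in grey. Only the intervals of ABCB1, from 1.32 to 1.78, and ABCC1, from -1.96 to -1.40, lie wholly beyond 2-fold.

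Among the MRPs, ABCC2 (ENSG00000023839, chromosome 10, 99782640 to 99852594, plus strand) encodes MRP2, which exports conjugates into bile and was the most abundant pump in Huh7 P. It was at 226, 242 and 241 CPM in Huh7 P and at 188, 206 and 203 CPM in Huh7 LR. The lines did not overlap, and the log2 fold change was -0.25 with an SE of 0.07 (adjusted p = 0.0127, edgeR). That call was lost without Huh7 P replicate 2, with a log2 fold change of -0.23 and an adjusted p of 0.0715 in edgeR.

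ABCC3 (ENSG00000108846, chromosome 17, 50634777 to 50692252, plus strand) encodes MRP3, a basolateral pump for glucuronide conjugates. It was at 59.8, 60.3 and 56.8 CPM in Huh7 P and at 97.9, 113 and 115 CPM in Huh7 LR. Every Huh7 LR library was above every Huh7 P library, and the log2 fold change was 0.88 (SE 0.08, adjusted p = 7.87e-06, edgeR) and an interval of 0.71 to 1.05 that crosses 2-fold. The count ratio of ABCC3 to ABCC2, the basolateral and the canalicular exporter of conjugates, moved from 0.249 to 0.545. This ratio did not overlap between the lines (exact permutation p = 0.1, two-sided).

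ABCC1 and ABCC6 lie side by side on chromosome 16 and moved in opposite directions. ABCC1 (ENSG00000103222, 15949577 to 16143074, plus strand) encodes MRP1, a broad drug and glutathione conjugate exporter that is low in normal hepatocytes. It was at 16.4, 15.7 and 12.8 CPM in Huh7 P and at 4.42, 4.98 and 4.62 CPM in Huh7 LR. The lines were far apart, with a log2 fold change of -1.68, an SE of 0.13 and an interval of -1.96 to -1.40, which is 3.20-fold lower (adjusted p = 2.78e-06, edgeR). ABCC6 (ENSG00000091262, 16148928 to 16223522, minus strand) encodes MRP6, a liver transporter best known for its loss in pseudoxanthoma elasticum. ABCC6 was at 49.6, 48.9 and 48.1 CPM in Huh7 P and at 55.4, 68.7 and 67.1 CPM in Huh7 LR. The lines did not overlap, Huh7 LR replicate 1 lay closest to Huh7 P, and the log2 fold change was 0.38 with an SE of 0.09 (adjusted p = 0.00404, edgeR). The count ratio of ABCC6 to ABCC1 was 3.29 in Huh7 P and 13.6 in Huh7 LR, with no overlap (exact permutation p = 0.1, two-sided).

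FPKM values, which are scaled for length and library size, gave a larger rise for ABCC6 than the counts did, with a log2 ratio of 0.54. Counts divided by FPKM give the transcript length that the authors' scaling assumed, up to the scaling of the libraries. For ABCC6 this length was 4560 ± 106 bases (SD, n = 3) in Huh7 P and 4176 ± 80.4 bases (SD, n = 3) in Huh7 LR, without overlap. Its log2 shift of -0.13 was matched or exceeded in size by 4.57% of the 11363 genes that had 100 or more counts in all libraries, whose quartiles were -0.004 and 0.016. ABCC5 shifted by 0.05, from 5867 to 6067 bases, also without overlap, and the other 8 pumps overlapped between the lines. Whether the make-up of ABCC6 isoforms or reads of its pseudogenes moved with the line was not tested.

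The remaining MRPs differed little. ABCC4 (ENSG00000125257, chromosome 13, 95019829 to 95301475, minus strand) encodes MRP4, a basolateral exporter of nucleotide analogues and bile acids. It was at 75.8, 77.6 and 72.1 CPM in Huh7 P and at 80.4, 82.2 and 80.9 CPM in Huh7 LR, without overlap. Its log2 fold change of 0.11 had an interval of -0.03 to 0.25 (adjusted p = 0.182, edgeR). ABCC5 (ENSG00000114770, chromosome 3, 183919934 to 184018015, minus strand) encodes MRP5, an exporter of cyclic nucleotides and nucleotide analogues. It was at 46.9, 43.7 and 42.8 CPM in Huh7 P and at 36.7, 43.0 and 40.3 CPM in Huh7 LR. Huh7 LR replicate 2 lay within the Huh7 P range, and the log2 fold change of -0.15 had an interval of -0.33 to 0.02 (adjusted p = 0.143, edgeR). Without that library the value was -0.20, with an adjusted p of 0.0451 in edgeR. ABCC10 (ENSG00000124574, chromosome 6, 43427366 to 43450430, plus strand) encodes MRP7, for which taxanes are known substrates. It was at 19.4, 18.8 and 18.1 CPM in Huh7 P and at 18.7, 20.5 and 19.6 CPM in Huh7 LR, with overlap. Its log2 fold change of 0.06 had an interval of -0.12 to 0.24 (adjusted p = 0.588, edgeR). DLK2 on the opposite strand shares 79 exon bases, 0.977%, with ABCC10, and no other listed gene shares exon bases with a pump.

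Summed over the 10 pumps, the level was 579, 600 and 576 CPM in Huh7 P and 669, 768 and 765 CPM in Huh7 LR. The lines did not overlap, and the sum was 1.25-fold higher in Huh7 LR, at 734 ± 56.1 CPM against 585 ± 12.8 CPM (SD, n = 3, exact permutation p = 0.1, two-sided). ABCB1 made up 60.0% of the 201 CPM that the 7 pumps with a higher mean gained, and ABCC2 made up 71.6% of the 52.0 CPM that ABCC1, ABCC2 and ABCC5 lost. Without ABCB1 the sum was 519, 533 and 516 CPM in Huh7 P and 517, 570 and 565 CPM in Huh7 LR, which overlapped and gave a ratio of 1.05 (exact permutation p = 0.3, two-sided). That overlap depended on the scaling, since without ABCB1 the lines were apart in summed FPKM, with a ratio of 1.11, and in CPM scaled by total counts alone, with a ratio of 1.08 (exact permutation p = 0.1 for each, two-sided). Without ABCC2 the sum was 1.54-fold higher in Huh7 LR, at 535 against 348 CPM. Pump transcripts made up 0.0563% to 0.0590% of all counts in Huh7 P and 0.0690% to 0.0776% in Huh7 LR.

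ABCB1 held a larger part of the pump transcripts in Huh7 LR, and ABCC2 a smaller one. The Huh7 P libraries gave ABCB1 10.5%, 11.1% and 10.5% of the pump counts, and the Huh7 LR libraries gave it 22.8%, 25.7% and 26.1%, a mean difference of 14.2 percentage points. ABCC2 took 39.1%, 40.4% and 41.8% of the counts in Huh7 P, and its part in Huh7 LR was 28.1%, 26.9% and 26.6%, a difference of -13.2 points. Neither share overlapped between the lines, and the 2 shares nearly met in Huh7 LR. ABCC3 went from 10.1% ± 0.233 to 14.8% ± 0.226 (SD, n = 3) of the pump counts. ABCC1 went from 2.56% ± 0.314 to 0.637% ± 0.0299 (SD, n = 3).

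Altogether 8 of the 10 shares of counts did not overlap between the lines, 3 higher in Huh7 LR (ABCB1, ABCC3 and ABCG2) and 5 lower (ABCC1, ABCC2, ABCC4, ABCC5 and ABCC10). Each of the 8 had an exact permutation p of 0.1, two-sided, and of 0.125 after Benjamini-Hochberg adjustment over the 10 shares, so none could pass 0.05 in this design. Shares add up to a whole, so a gain of 1 pump lowers the others. ABCC4 went in share from 12.9% to 11.1% while its CPM was not lower, ABCC5 went from 7.61% to 5.45% and ABCC10 from 3.22% to 2.68%. The share of ABCG2 was 2.07% ± 0.0322 in Huh7 P and 2.23% ± 0.0683 in Huh7 LR (SD, n = 3), a difference of 0.165 points. That direction turned when ABCC2 was left out of the sum, where ABCG2 went from 3.47% to 3.07%, and by FPKM its share overlapped between the lines. ABCB4, from 2.13% to 2.37%, and ABCC6, from 8.36% to 8.66%, overlapped between the lines in share of counts although both rose in CPM. By FPKM the share of ABCC6 did not overlap, at 10.2% ± 0.0779 in Huh7 P against 11.2% ± 0.516 in Huh7 LR (SD, n = 3, exact permutation p = 0.1, two-sided). Counting error alone gave a 95% Wilson half-width of at most 0.5 points for any share in any library.

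**Figure D3:**
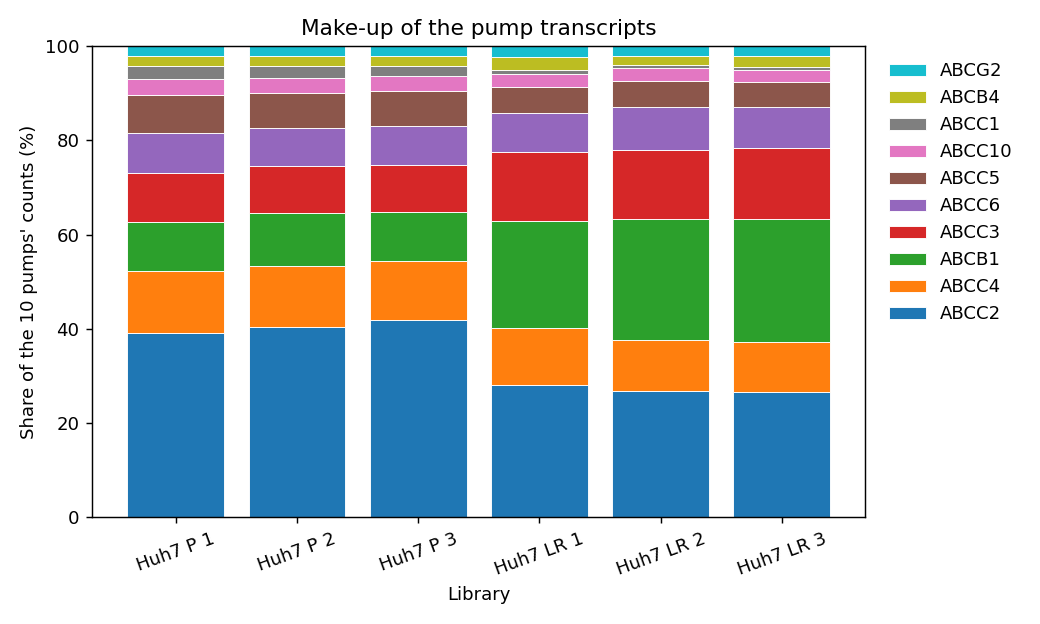
Share of the summed counts of the 10 pumps taken by each pump, in percent, with 1 stacked bar for each of the 6 libraries. The ABCC2 block shrinks from 39.1% to 41.8% in Huh7 P to 26.6% to 28.1% in Huh7 LR, and the ABCB1 block grows from 10.5% to 11.1% to 22.8% to 26.1%.

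Levels of different pumps were compared in FPKM, since counts grow with transcript length. In Huh7 P the order was led by ABCC2 at 40.3 FPKM, 3.35-fold above the next pump. ABCB1 and ABCC4 followed at 12.0 FPKM each, then ABCC6 at 10.6, ABCC3 at 10.2, ABCC5 at 7.49, ABCC10 at 3.45, ABCB4 at 2.90, ABCG2 at 2.81 and ABCC1 at 2.10 FPKM. The libraries of ABCB1 and ABCC4, of ABCC6 and ABCC3, and of ABCB4 and ABCG2 overlapped, so the order within these pairs is not resolved. In Huh7 LR, ABCB1 at 35.9 ± 4.94 FPKM and ABCC2 at 34.7 ± 1.23 FPKM (SD, n = 3) overlapped at the head of the order. ABCC3 at 19.2, ABCC6 at 15.4, ABCC4 at 13.2 and ABCC5 at 6.66 FPKM followed without overlap. ABCB4 at 4.20 FPKM overlapped both ABCG2 at 3.97 and ABCC10 at 3.64 FPKM, so its place among them is not resolved, and ABCC1 at 0.673 FPKM came last. ABCG2 thus stayed among the 4 pumps of lowest level in both lines. ABCC1 was lowest in both, 1.34-fold under the next pump in Huh7 P and 5.42-fold in Huh7 LR.

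**Figure D4:**
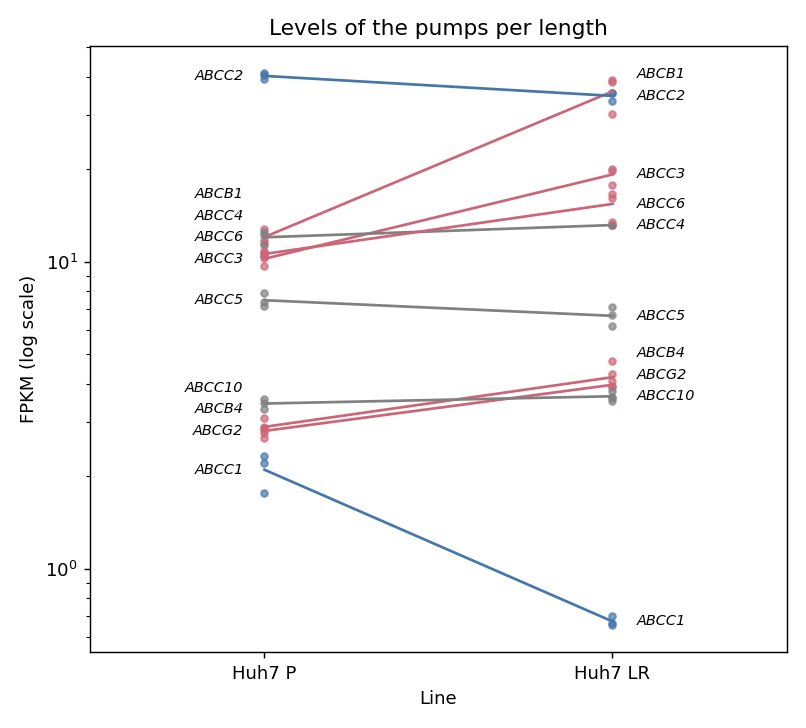
FPKM of each pump in the 3 libraries of each line as points on a log axis, with lines joining the means, in red for pumps higher, blue for pumps lower and grey for pumps not passing an adjusted p of 0.05 in edgeR. ABCB1 climbs from 12.0 to 35.9 FPKM to the level of ABCC2, and ABCC1 drops from 2.10 to 0.673 FPKM, and labels are spaced apart where points lie close.

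Of the 20 tested genes nearest to ABCB1, 10 on each side over 9.65 Mb, 6 were higher in Huh7 LR and 6 were lower. The other 8 did not pass, and the median log2 fold change of the 20 was -0.13. Over all genes and loci tested, 23.3% were higher and 22.4% lower. ABCB1 stood between ABCB4 at 0.47 and RUNDC3B at 2.36. RUNDC3B lies partly over ABCB1 on the opposite strand without shared exon bases and went from 0.384 to 1.98 CPM. CROT, the carnitine octanoyltransferase gene on the far side of ABCB4, rose by 1.08 on the log2 scale and ADAM22 by 0.92, while DBF4 fell by 0.68 and DMTF1 fell by 0.52. Around the pair ABCC1 and ABCC6, 2 of the 20 nearest tested genes were higher, 4 were lower and 14 did not pass, with a median of -0.17. MPV17L had a log2 fold change of 1.05, and FOPNL, the nearest tested gene on the ABCC1 side, had -0.49. Whether copy number of these regions differs between the lines was not measured.

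**Figure D5:**
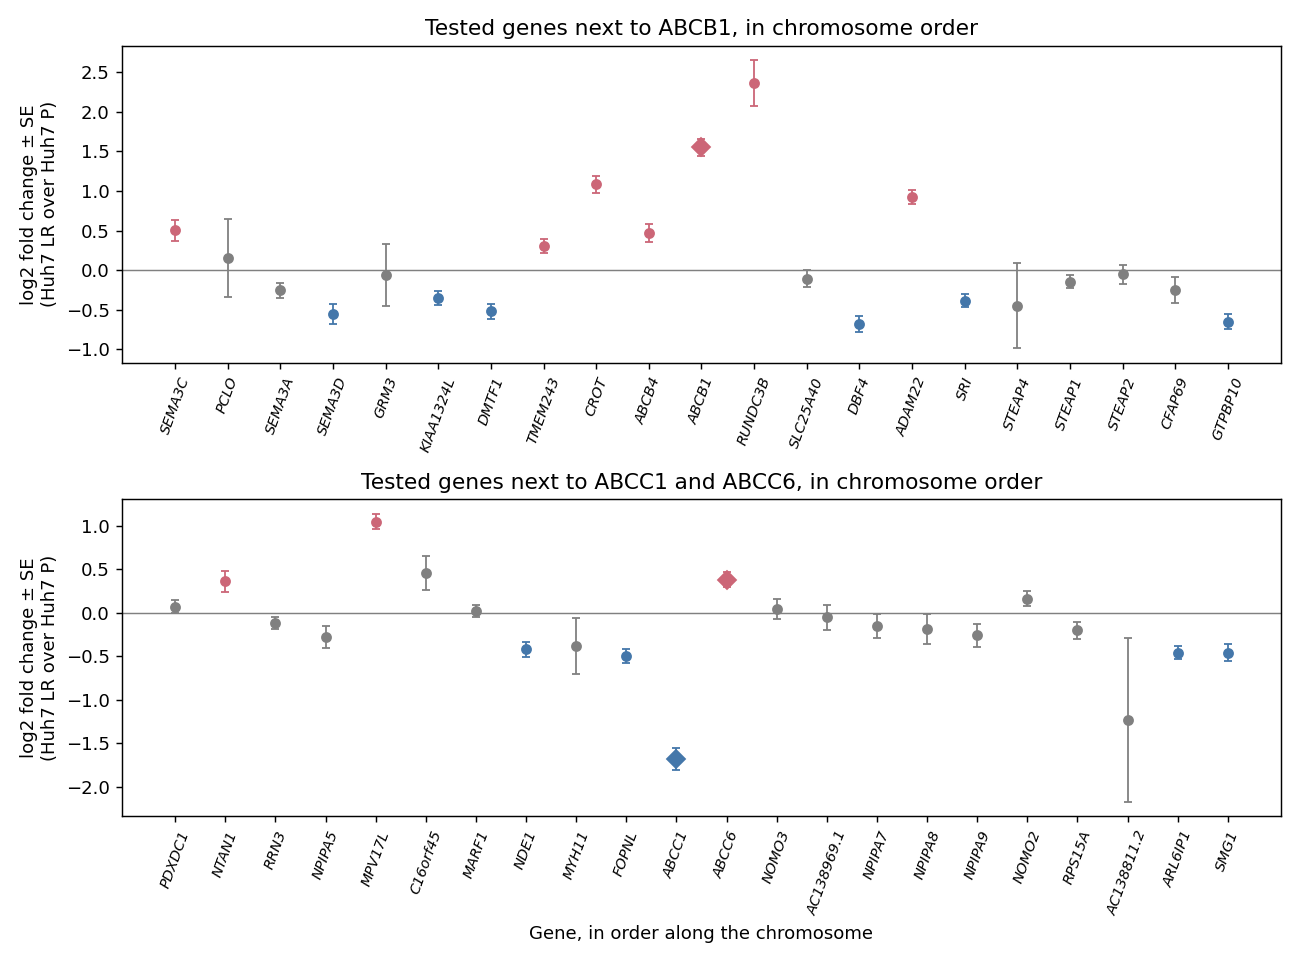
Log2 fold change with its SE for ABCB1 (upper panel) and for ABCC1 and ABCC6 (lower panel), drawn as diamonds, and for the 10 nearest tested genes on each side in chromosome order, in red for higher, blue for lower and grey for not passing an adjusted p of 0.05. Genes next to ABCB1 run from -0.68 to 2.36, and 14 of the 20 genes beside ABCC1 and ABCC6 did not pass.

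Other members of the ABC family gave a wider view. Of 38 further genes of the ABC family, which include the ABCE and ABCF members that are not transporters, 27 were tested, 9 were higher and 4 lower in edgeR, and the median log2 fold change was 0.01. Of all genes and loci tested, 23.3% were higher, 22.4% lower and 4.43% higher past 2-fold at the stricter limit, which 5 genes of the list met. Higher by more than 2-fold at an adjusted p below 0.05 were the lipid transporter genes ABCA7 at 1.31, ABCA5 at 1.16 and ABCG1 at 2.79, and the chloride channel gene CFTR at 1.67. TAP1, of the antigen peptide transporter, was at 2.03, the retinal transporter ABCA4 at 1.61 and ABCB5 at 1.74. ABCA4 and ABCB5 missed the stricter limit and passed the filter on low counts through Huh7 LR alone, and with at least 10 counts required in each library 7 genes of the list were higher. Of these 7, only ABCA5 and ABCA7 were above 10 CPM in Huh7 LR, at 27.2 and 47.3 CPM. ABCB5 was at 0.0852 and 0.289 CPM, and its call (adjusted p = 0.0343, edgeR) was lost when any of 5 of the 6 libraries was left out, with adjusted p-values of 0.062, 0.0612 and 0.117 without Huh7 P replicate 1, 2 or 3 and of 0.0624 and 0.179 without Huh7 LR replicate 2 or 3. ABCE1, a ribosome recycling factor, was 1 of the 4 that were lower, with ABCF2, ABCB6 and ABCB8, and had a log2 fold change of -1.03, from 157 to 77.0 CPM. By limma on FPKM, 4 genes of the list were higher after a filter on low values, which removed ABCA3, ABCA4, ABCB5 and ABCG1 among others, and 6 without the filter.

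Of 29 genes whose products are known to bear on pump transcription, 28 were tested, 8 were higher and 6 lower, with a median log2 fold change of -0.03, which sets them near the background of 23.3% higher and 22.4% lower. MYC fell by 1.52 on the log2 scale, from 86.0 to 30.0 CPM, and MYCN had a log2 fold change of 0.74. JUN at 0.99, EGR1 at 1.30, FOXO1 at 0.98 and ARNT, the partner of the aryl hydrocarbon receptor, at 0.61 were higher. NR1I2, which encodes the drug sensor PXR that induces ABCB1, went from 10.1 to 8.03 CPM, a log2 fold change of -0.34 (adjusted p = 0.023, edgeR). That call was lost without Huh7 P replicate 2, Huh7 P replicate 3 or Huh7 LR replicate 1, with adjusted p-values of 0.0796, 0.0556 and 0.0612. It was also lost with limma on FPKM, at -0.26 with a pseudocount of 0.1 (adjusted p = 0.0823, or 0.114 without a filter) and at -0.18 with a pseudocount of 1 (adjusted p = 0.0755). NR1I3, which encodes the related sensor CAR, had -0.31 (adjusted p = 0.303, edgeR). NFE2L2, which encodes the oxidative stress regulator NRF2 that is known to act on ABCC genes, had -0.42, from 275 to 206 CPM (adjusted p = 0.00146, edgeR).

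Among genes for anchoring and trafficking of membrane transporters, 5 of 11 tested were higher and 1 was lower, with a median of -0.005, against 23.3% and 22.4% of everything tested. PDZK1, a scaffold that binds ABCC2 and other apical transporters, went from 59.1 to 171 CPM with a log2 fold change of 1.53. CAV1 at 1.63, PIM1 at 1.06, MYO5B at 0.78 and SLC9A3R1 at 0.40 were also higher, and RDX, which encodes the radixin that anchors MRP2 at the canalicular membrane, was lower at -0.55. SLC9A3R1 did not pass with FPKM values. Of the 9 genes of glutathione supply, which feed the conjugates that MRPs carry, none was higher and 2 were lower, the latter a share near the 22.4% of everything tested. These were the cystine transporter SLC7A11 at -1.38 and GCLM, of glutamate-cysteine ligase, at -0.76.

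Among 11 genes listed as uptake transporters, most of which bring drugs and bile acids into hepatocytes, 7 were higher and 2 lower in edgeR. The median log2 fold change was 0.70, where the background was 23.3% higher and 22.4% lower. The 7 include SLC47A1 at 0.60, which encodes an exporter of the canalicular membrane and not an uptake transporter. Both the 7 and the median include SLCO1B1 and SLC10A1, whose limits are given below. The organic anion transporters SLC22A9 at 1.81 and SLC22A7 at 1.59 and the sinusoidal transporters SLCO1B3 at 1.11 and SLCO1B1 were higher. The Huh7 P libraries held 0, 11 and 9 counts of SLCO1B1 and the Huh7 LR libraries 88, 156 and 190, so it passed the filter on low counts through Huh7 LR alone. Its log2 fold change was 4.35 in edgeR and ran from 0.84 to 4.96 over the other settings that could test it. The bile acid transporter SLC10A1 at 1.40 went from 0.217 to 0.579 CPM (adjusted p = 0.0268, edgeR), also passing the filter through Huh7 LR alone, and this call was lost when any of 4 libraries was left out, with adjusted p-values of 0.0739 and 0.0909 without Huh7 P replicate 2 or 3 and of 0.0517 and 0.0979 without Huh7 LR replicate 1 or 2. SLC22A3 was lower at -0.88. Of the hepatocyte markers 6 were higher, as given above, and the part of hepatocyte gene expression as a whole in the pump values was not tested.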

How the data were processed

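RNA-seq was carried out by a company on poly(A) RNA from 3 Huh7 P and 3 Huh7 LR samples. The deposited table holds a raw read count, which was not normalized, and an FPKM value, scaled by the authors for length and library size, for each gene and library. The submitters' processing notes name TopHat2, Cufflinks, DESeq and the mouse build mm10, which goes against the human identifiers, and their roles, the annotation and strand setting are not given in the sources used here. The labels' extraction text describes an insect. The table has 26184 rows that name a gene or locus, including 6210 loci with no gene annotated, to which 2.86% to 3.35% of each library's counts belonged, and 34 lines of annotation text that were left out. All 19974 annotated identifiers were found in GENCODE release 29, 19910 with the same symbol, and coordinates, transcripts and coding sequences on GRCh38 were taken from that release.

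The counts were tested with edgeR 4.0.16 in R 4.3.3 (filterByExpr with minimum count 10 and minimum total 15, TMM factors of 0.977 to 1.03, quasi-likelihood test), and p-values were adjusted over all 17531 rows tested by the Benjamini-Hochberg method. The biological coefficient of variation was 12.7%. A gene was called at an adjusted p under 0.05, and also at more than 2-fold with an adjusted p under 0.001. Shares, sums and ratios of pumps were compared by exact permutation tests, two-sided, in Python 3.11.15 with scipy 1.17.1. Alternatives used DESeq2 1.42.0, limma 3.58.1 on log2(FPKM + 0.1) or log2(FPKM + 1), other scalings and filters, a replicate block, and each library left out. The test was checked on simulated data, where edgeR called 34 of 67 genes changed by 0.5 on the log2 scale. It called 60 of 67 changed by 1 and 63 of 66 changed by 1.5, with 11 false calls. Changes of 0.5 or less can therefore be missed. Each library held 62738937 to 71427573 counts, and ABCC1 in Huh7 LR, the lowest pump, still had 288 to 349 counts. The 10 pumps, the other lists and the markers were chosen with earlier results of these data known. All pumps were named, and with them the ABC genes past 2-fold, up to 6 called genes of each other list with the largest change, and NR1I2, NR1I3 and NFE2L2. Of the genes nearest to a pump on its chromosome, some are named as examples. Exon sharing and identical windows of 50 bases were computed from the annotation. A gene among those most like ABCG2 in pattern is not reported here.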

Additional observations from a re-analysis of the deposited data

How the results depend on the processing

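Of 150 log2 fold changes of the pumps under 15 other settings, 148 kept the same sign and the same side of the 0.05 limit, and the exceptions were ABCC2 without Huh7 P replicate 2 and ABCC5 without Huh7 LR replicate 2, given above. Leaving out 1 library at a time gave 5 pumps higher and 1 to 3 lower. The same numbers in both lines did not pair the samples, with a correlation of deviations of 0.029, 0.0314 and 0.0317 between same-numbered samples, and a fit with the replicate block gave 5 pumps higher and 2 lower and, over everything tested, 4089 higher and 4033 lower beside 4093 and 3923. Of the ABC genes named above, ABCB5 lost its call under the replicate block (log2 fold change 1.70), with DESeq2 (1.76), without a filter (1.74) and with limma on unfiltered FPKM (0.28). With limma on log2(FPKM + 1) 0 pumps were lower past 2-fold, since this pseudocount shrinks low genes, and ABCC1 was at -0.89. In the same fit 268 genes and loci were higher and 84 lower past 2-fold, beside 776 and 312 in edgeR, and with log2(FPKM + 0.1) and no filter 353 and 120. Of the other ABC family genes, 4 were higher with either pseudocount after the FPKM filter, and 6 without it. NR1I3, which was not called, turned to 0.11 with log2(FPKM + 0.1), filtered or not, and to 0.0677 with log2(FPKM + 1), and the cause was not tested. The log2 ratio of the summed pump CPM, 0.33 with all 10, was 0.62 without ABCC2 and 0.0764 without ABCB1, the latter chosen after seeing the data. Without ABCC2 in the sum, the share of ABCG2 turned from 0.165 to -0.41 percentage points, and that of ABCC6 went from 0.30 with overlap to -2.15 without. The share of ABCB4 also turned, from 0.24 to -0.32 points, with overlap between the lines in both cases. The planned sum of ABCC6 with its pseudogenes was not run, since the table used here has no row for them. Scaling by total counts moved the median of all genes to 0.04. Whether depth limits the pump calls was not tested, and 3 samples against 3 cannot give an exact permutation p under 0.1 for any share, sum or ratio.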

Other observations

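The genes with the most similar pattern over the 6 libraries were found by the distance of log2 CPM, with a pseudocount of 0.1 and centred on each gene's mean, among 14053 annotated genes tested. This is a description of likeness, and the libraries fall into 2 lines, so genes with a similar fold change come first. Nearest to ABCB1 were CFTR (distance 0.101), NXPH3 (0.104), HSD17B2 (0.119) and F12 (0.128). MARK1, the next, had no counts in Huh7 P, so the pseudocount sets its distance and no likeness is read from it. HSD17B2, a steroid dehydrogenase gene, went from 32.3 to 99.3 CPM, and F12, the gene of coagulation factor XII, from 48.8 to 144 CPM. Among the genes nearest to ABCG2 were SMPDL3A (0.0429), ORMDL3 (0.0470), WDR13 (0.0568) and GSTK1 (0.0590), the last the gene of a glutathione transferase. Nearest to ABCC1, which had a larger spread within Huh7 P, were NES (0.208), FOXN4 (0.240), NOTCH1 (0.269), SFN (0.313) and DUS3L (0.346). NES, the intermediate filament gene nestin, was at 81.5 CPM in Huh7 P, and NOTCH1, a receptor gene, at 26.4 CPM.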
